A study of Sus scrofa with 15 samples.

Results

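AMH and AMHR2, the genes of anti-Müllerian hormone and of its type II receptor, were followed in pig ovarian granulosa cells over 7 days of culture. They were chosen by symbol, as 2 of the 6765 genes that the array annotation names on a probe set with a single symbol, and each is measured by 1 probe set. Both transcripts were lower on day 7 than in fresh cells, and their day means ran differently in between. AMH fell by 2.18 on the log2 scale on day 1 and passed no test between later days. AMHR2 fell on day 1, rose on day 2 to within 0.07 of its day 0 mean, and fell again by day 4. The day 2 rise lost its call in 7 of 18 fits that left out arrays. Tested directly, AMH minus AMHR2 passed none of 3 exact permutation tests between days (adjusted p of 0.107 to 0.5). In a limma fit chosen after the values were seen, only day 2 against day 0 was called. A difference between the courses is therefore described and not established.

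AMH is a secreted glycoprotein of the transforming growth factor beta family. In the adult ovary it is made by granulosa cells of small growing follicles, where it is known, chiefly from mice, to hold back the recruitment of resting follicles and the response to follicle-stimulating hormone. It binds AMHR2, a serine/threonine kinase that is selective for it. The pair then recruits a type I receptor shared with the bone morphogenetic proteins (BMPs), which is ACVR1, BMPR1A or BMPR1B, and these phosphorylate SMAD1, SMAD5 and SMAD9, which act in the nucleus with SMAD4.

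The study followed granulosa cells from porcine ovarian follicles as they dedifferentiated in culture. Total RNA was taken at day 0 and after 1, 2, 4 and 7 days in culture, with 3 arrays for each day and 15 in all. The day 7 cells carry the label DFOG. No treatment sets the groups apart, and the sources used here give no breed, age or follicle size. The labels call the 3 samples of a day biological replicates but do not say whether they came from separate animals, so each p-value speaks of the spread among these samples. Levels are deposited log2 intensities of a 3′ array. A change passed the test, or was called, at a limma p below 0.05 after Benjamini-Hochberg adjustment over 23999 probe sets together with a log2 change of 1 or more in size.

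The cells carried granulosa transcripts on every day, at a lower mean level on day 7. Day 7 arrays had a mean level of 7.46 to 7.70 over 13 measured granulosa markers, against 9.85 to 10.1 on day 0 arrays. Over 9 stromal and smooth muscle markers it was 10.4 to 10.8 on day 7 arrays, against 5.66 to 6.03 on day 0 arrays. In RNA from many cells, fewer cells of a type and less RNA per cell cannot be told apart. The replicate 1 arrays stood apart from the others on the third principal component (13.1% of the variance, scores of 29.4 to 48.1 against -41.4 to -5.78), and day 4 replicate 2 had the largest 3′ to 5′ difference of the actin control probes (2.12, against 0.02 to 1.68 on the other arrays). This difference, which can reflect RNA quality or labelling, moved with culture time for actin and GAPDH. Its median for actin was 1.42 on day 0, 0.84 on day 1, 0.65 on day 2, 0.63 on day 4 and 0.57 on day 7. For GAPDH the median was 1.00 on day 0 and 0.53 on day 7. The bacterial dap control had medians of 2.18 on day 0 and 2.01 on day 7. It too was largest on day 4 replicate 2 (3.47, against 1.61 to 2.49 on the other arrays). The difference is thus not read as RNA quality alone. Replicate 1 had the lowest actin value on every day. The part of these control differences in the falls of AMH and AMHR2 was not tested.

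AMH had levels of 6.34, 7.03 and 7.39 on the 3 arrays of day 0. On day 1 the levels were 4.83, 4.59 and 4.81. On day 2 they were 4.92, 5.10 and 4.83. All day 1 and day 2 arrays lay below every day 0 array. On day 4 AMH had levels of 4.62, 4.06 and 4.46. On day 7 it had 5.02, 4.04 and 4.31. The fresh cells were thus the only high ones, and the 4 culture days followed each other closely. AMH ranked at percentiles 49.1 to 61.9 of all probe sets on day 0 arrays and 18.1 to 31.5 on culture arrays.

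**Figure D1:**
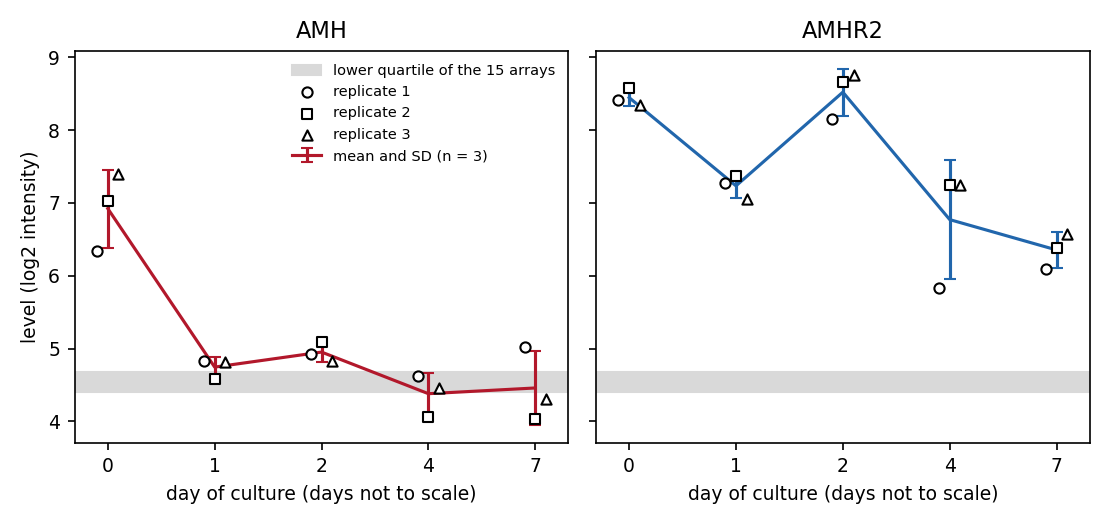
Levels (log2 intensity) of AMH, left, and AMHR2, right, on days 0, 1, 2, 4 and 7; symbols are replicates, lines join day means with SD (n = 3), and the grey band spans the lower quartiles of the 15 arrays (4.41 to 4.68). AMH lay in or near the band on every culture day, while AMHR2 stayed above it and showed a second high point on day 2.

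The mean of AMH was 4.74 ± 0.14 on day 1 and 6.92 ± 0.54 on day 0 (SD, n = 3 each), a log2 change of -2.18 ± 0.27 (SE; limma adjusted p = 5.58e-05), or 4.53-fold lower. On day 7 the mean was 4.46 ± 0.51, a change of -2.47 from day 0 (95% interval -3.05 to -1.88, adjusted p = 1.02e-05), or 5.52-fold lower. AMH also fell on day 2 (by 1.97, adjusted p = 9.86e-05) and on day 4 (by 2.54, adjusted p = 8.02e-06) against day 0. These 4 comparisons share the day 0 arrays. Over all probe sets, 6.03% were called lower on day 1, 6.59% on day 4 and 7.28% on day 7, and 13.8% were called in either direction on day 2.

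No step within culture passed the test for AMH. The day 2 mean was above the day 1 mean by 0.21 (95% interval -0.38 to 0.80, adjusted p = 0.839). The day 4 arrays all lay below the day 2 arrays, with a change of -0.57 (-1.16 to 0.02, adjusted p = 0.382). Day 7 differed from day 4 by 0.08 (-0.51 to 0.67) and from day 1 by -0.29 (-0.88 to 0.30, adjusted p = 0.561). In order of their means the days ran 0, 2, 1, 7 and 4. Of the neighbours in that order, only days 0 and 2 had levels that did not overlap and a difference that passed the test. Between days 7 and 4, 0.0583% of all probe sets were called in either direction, and between days 7 and 1, 9.03%. The lower quartiles of the 15 arrays lay between 4.41 and 4.68, so AMH in culture was close to the dimmest probe sets. No detection call was used here, and at such levels the intensity need not come from AMH alone, so the fold is given as measured.

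AMHR2 had levels of 8.42, 8.58 and 8.35 on day 0. On day 1 it had 7.28, 7.37 and 7.06, all below day 0. On day 2 it had 8.15, 8.66 and 8.76, all above day 1 and overlapping with day 0. On day 4 its levels were 5.82, 7.24 and 7.25, all below day 2. On day 7 they were 6.10, 6.39 and 6.58. The low array of day 4 was replicate 1, which gave day 4 the widest spread of any day, and day 4 overlapped with both day 1 and day 7.

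AMHR2 averaged 7.24 ± 0.16 on day 1 and 8.45 ± 0.12 on day 0 (SD, n = 3 each). The log2 change was -1.21 ± 0.31 (SE, limma adjusted p = 0.0101), or 2.32-fold lower. On day 2 the mean was 8.52 ± 0.32, which was 1.29 above day 1 (95% interval 0.62 to 1.95, adjusted p = 0.0255), or 2.44-fold higher. Between days 2 and 1, 2.04% of all probe sets were called higher and 1.0% lower. Day 2 differed from day 0 by 0.07 (-0.59 to 0.74, adjusted p = 0.899).

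The rise on day 2 was the least secure call of AMHR2. Its size stayed between 1.08 and 1.49 in every fit that left out arrays, but the adjusted p passed 0.05 in several of them. It was 0.0545, 0.0646 and 0.0897 without day 1 replicates 1, 2 and 3, and 0.0998 and 0.115 without day 2 replicates 2 and 3. With replicate 1 left out on every day it was 1.72e-04, and without replicates 2 or 3 on every day it was 0.361 and 0.473. The fall on day 1 also missed the threshold without replicate 2 (change -1.22, adjusted p = 0.115) and without replicate 3 (-1.17, adjusted p = 0.130) on every day.

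On day 4 AMHR2 averaged 6.77 ± 0.82 (SD, n = 3), which was 1.75 below day 2 (95% interval -2.42 to -1.08, limma adjusted p = 0.00489), or 3.37-fold lower, and 1.68 below day 0 (adjusted p = 8.76e-04). Between days 4 and 2, 0.538% of all probe sets were called lower and 2.0% higher. Without day 4 replicate 1 the change from day 2 was -1.28 and that from day 0 -1.20, and both calls held. The call against day 2 was lost without replicate 2 (-1.92, adjusted p = 0.132) or 3 (-1.87, adjusted p = 0.118) on every day. On day 7 the mean was 6.35 ± 0.24, a change of -2.09 from day 0 (-2.76 to -1.43, adjusted p = 1.37e-04), or 4.27-fold lower.

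Day 7 lay 0.42 below day 4 for AMHR2 (change -0.42, 95% interval -1.08 to 0.25) and 0.88 below day 1 (-0.88, -1.55 to -0.21, adjusted p = 0.0648), and neither passed the test, although the day 7 and day 1 arrays did not overlap. In order of their means the days ran 2, 0, 1, 4 and 7. Of the neighbours in that order that were tested, days 0 and 1 differed by the test, and days 2 and 0 and days 4 and 7 did not. Days 1 and 4 overlapped, and their difference was not tested. Over the whole time course both genes passed limma's F test, with day means 2.54 apart for AMH (adjusted p = 2.65e-05) and 2.17 apart for AMHR2 (adjusted p = 1.52e-04). That test called 23.6% of all probe sets.

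**Figure D2:**
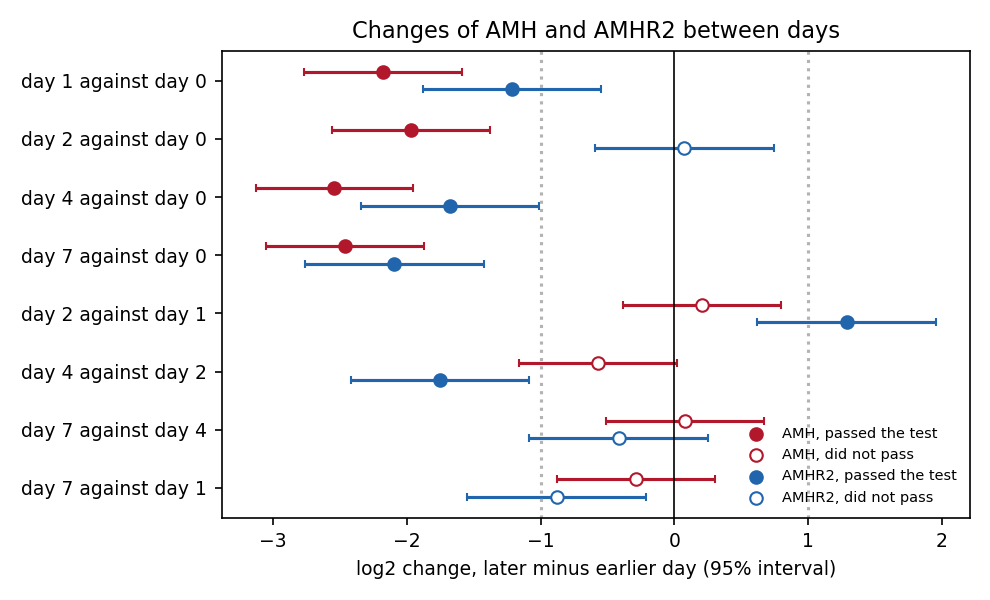
Log2 change, later minus earlier day, of AMH and AMHR2 in 8 comparisons, with 95% intervals from limma; filled points passed the test and open points did not, and dotted lines mark the minimum change of 1. AMH passed in the 4 comparisons with day 0 only, while AMHR2 passed in 3 of those and in both comparisons with day 2 as a neighbouring day.

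Ligand and receptor were set against each other on each array as AMH minus AMHR2 on the log2 scale. The 2 probe sets differ in sequence, so the sign of a single value has no meaning, and only its changes between days are read. AMH lay near the lower quartile of the arrays on all culture days and passed no test between them, so within culture the difference moves chiefly with AMHR2, its sign turned, and is not read as a change of the ligand. The values were -2.08, -1.55 and -0.95 on day 0, and -2.44, -2.79 and -2.24 on day 1. On day 2 they were -3.23, -3.56 and -3.92, below every array of days 0 and 1. On day 4 they were -1.21, -3.18 and -2.79, and on day 7 they were -1.07, -2.35 and -2.27. The mean difference was lowest on day 2, and replicate 1 lay above the other replicates on days 4 and 7.

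**Figure D3:**
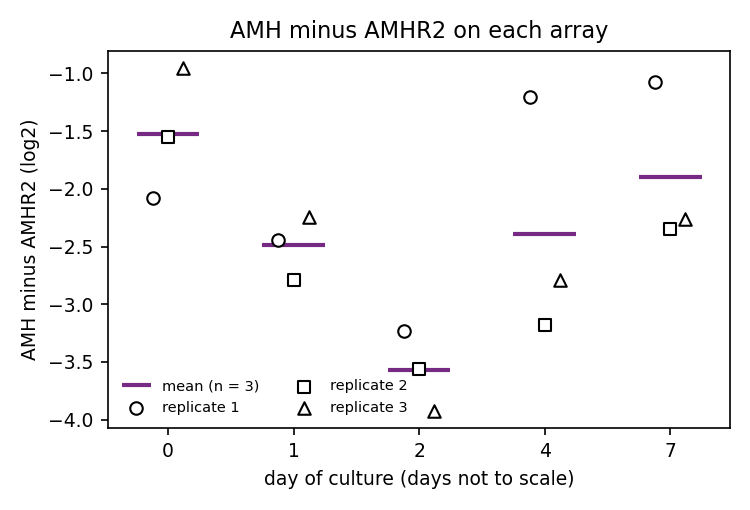
AMH minus AMHR2 (log2) on each array by day of culture; symbols are replicates and bars are day means (n = 3). The day 2 arrays, between -3.92 and -3.23, lie lowest, and replicate 1 lies above the other replicates on days 4 and 7.

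Over the 12 culture arrays the difference averaged -2.59 and over the 3 day 0 arrays -1.53. The gap of -1.06 did not pass an exact two-sided permutation test over arrays (p = 0.0681, adjusted over 3 such tests p = 0.107). Days 4 and 7 lay 0.89 above days 1 and 2 (6 arrays each, exact permutation p = 0.0714, adjusted p = 0.107). Day 7 against day 0 gave -0.37 (exact permutation p = 0.5), where 3 arrays against 3 cannot go below p = 0.10. AMH lay near the lower quartile of the arrays on day 7, so this gap does not show that ligand and receptor fell equally.

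Day by day, the same difference was also entered as a row of the limma fit, a test chosen after the values were seen. Day 2 lay 2.05 below day 0 (change -2.05, 95% interval -3.05 to -1.04, limma adjusted p = 0.00477), which is the day on which AMH was low and AMHR2 was not. Its adjusted p was 0.0586 without replicate 2 and 0.163 without replicate 3 on every day. Day 1 against day 0 gave -0.97 (adjusted p = 0.165), day 4 gave -0.87 (0.186) and day 7 gave -0.37 (0.601). Neither step around day 2 was called, with -1.08 for day 2 against day 1 (0.239) and 1.18 for day 4 against day 2 (0.242). Without replicate 1 on any day, days 1, 4 and 7 against day 0 were called, at -1.27 (adjusted p = 0.00247), -1.73 (2.86e-04) and -1.06 (0.00571). In that fit day 2 against day 1 was called as well (-1.23, limma adjusted p = 0.00709), and day 4 against day 2 was not (0.76, 0.0833). Without day 4 replicate 1 alone, day 4 against day 0 was called (-1.46, adjusted p = 0.0132).

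The day 2 return of AMHR2 was set beside the receptors of the gonadotropins, FSHR for follicle-stimulating hormone and LHCGR for luteinizing hormone. Like AMHR2, both fell on day 1 and rose on day 2. FSHR had levels of 8.04, 8.28 and 8.39 on day 2 and 6.44, 5.20 and 5.41 on day 1, a rise of 2.55 (adjusted p = 0.00312). LHCGR had levels of 10.11, 11.01 and 11.11 on day 2 and 9.16, 9.32 and 8.71 on day 1, a rise of 1.68 (adjusted p = 0.00955), and its second probe set gave 1.70. On day 1 against day 0 FSHR fell by 1.33 (adjusted p = 0.0316). LHCGR fell as well on day 1 (adjusted p = 2.13e-05), having stood at 12.49, 12.46 and 11.24 on day 0. The day 1 call of FSHR was lost without any of day 0 replicates 1 and 3 or day 1 replicates 2 and 3 (adjusted p up to 0.131), and the day 2 call of LHCGR without day 2 replicate 2 or 3 (up to 0.0547). Without replicate 2 or 3 on every day, the day 2 calls of both were lost (adjusted p up to 0.250).

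On day 4 against day 2 LHCGR fell by 3.14 (adjusted p = 1.43e-04), and FSHR had a change of -1.21 (adjusted p = 0.158), with day 4 arrays all below day 2 arrays as for AMHR2. Differences between the 3 receptors were not tested. LHCGR fell by 6.15 on day 7 against day 0 (adjusted p = 1.38e-08). FSHR was 1.23 above day 0 on day 2 (adjusted p = 0.0445), and its change on day 7 was -0.90 (adjusted p = 0.124). Across the 15 arrays, which share their days, the Pearson correlation with AMHR2 was 0.91 for LHCGR, 0.63 for FSHR and 0.59 for AMH. Of CYP19A1, the aromatase gene that AMH is known to restrain in rodents, no value is given, because the pig has several near-identical copies that the array may not tell apart. It is still 1 of the 13 measured granulosa markers and enters their mean levels and counts.

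**Figure D4:**
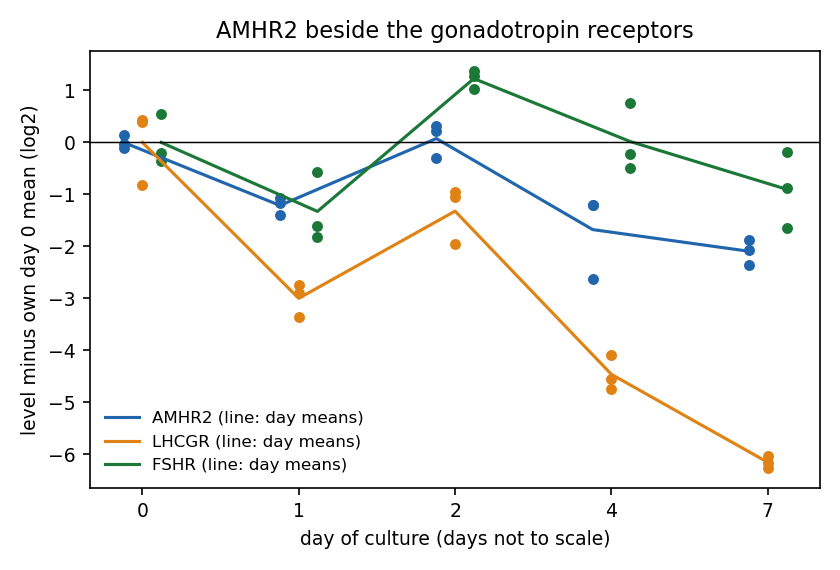
Level of AMHR2, LHCGR and FSHR minus the gene's own day 0 mean (log2) by day; points are arrays and lines join day means (n = 3). All 3 receptors were lower on day 1 and higher again on day 2, and on day 7 LHCGR fell by 6.15 against day 0.

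Another transcript with a peak on day 2 was EPCAM, an epithelial adhesion protein and one of 4 measured surface epithelium markers. It had levels of 8.96, 8.97 and 9.27 on day 2 and 4.50, 4.27 and 5.58 on day 1, a rise of 4.28 (limma adjusted p = 1.01e-04). The mean level of the 4 markers was 5.97 to 7.02 on day 2 arrays and 4.88 to 5.29 on day 1 arrays. Of the 4, EPCAM alone was called higher between these days, beside 2.04% of all probe sets, and their median change was 0.87. CDH1, which defines epithelia, lay at or below the lower quartile on day 2. KRT8, a keratin of simple epithelia, had a change of 1.81 (adjusted p = 0.0709). The part of such cells in the day 2 level of AMHR2 was not tested.

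Of the partners of AMHR2 in the receptor complex, ACVR1 was higher on days 1 and 7 against day 0, and BMPR1A and BMPR1B were not called in these comparisons. Of the 4 genes of the complex, 1 (ACVR1) was higher and 1 (AMHR2 itself) lower on day 1 and again on day 7, with a median change of 0.26 and 0.39. The median of all probe sets was between -0.06 and 0.00 in every comparison. ACVR1 had levels of 9.66, 9.66 and 9.38 on day 7 and 6.92, 7.51 and 7.19 on day 0, so that the groups were far apart. It rose by 1.64 on day 1 (adjusted p = 9.46e-06) and by 2.36 on day 7 (adjusted p = 1.41e-07), and its second probe set gave 1.51 and 1.98. Over all probe sets, 6.47% were called higher and 6.03% lower on day 1, and 9.36% higher and 7.28% lower on day 7.

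BMPR1A is a type I receptor that carries the AMH signal in the reproductive tract of mice. It had levels of 8.81, 8.61 and 8.63 on day 7 and 8.14, 8.14 and 8.24 on day 0. Its change of 0.51 (adjusted p = 0.00821) was under the minimum of 1. BMPR1B is abundant in granulosa cells of several species, and a sheep mutation in it raises ovulation rate. BMPR1B rose on day 2 as AMHR2 did, but without a fall on day 1 before it. Its change on day 1 against day 0 was 0.25 (limma adjusted p = 0.608), and 0.32 and -0.09 on its other probe sets. Its levels were 11.50, 12.49 and 12.39 on day 2 and 10.41, 10.69 and 10.56 on day 1. The rise was 1.58 ± 0.28 (SE, adjusted p = 0.00468), and its other probe sets gave 2.17 and 2.00, both called. On day 7 it lay 0.26 from day 0 (adjusted p = 0.531). Without replicate 2 or 3 on every day its day 2 call was lost as well (adjusted p up to 0.280).

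Of the other type II receptors of the family, ACVR2A changed by 0.84 (adjusted p = 0.109) and ACVR2B by -0.30 (adjusted p = 0.143) on day 7, and BMPR2 and TGFBR2 had no named probe set. Of 6 Smads, 2 were measured. SMAD1, a direct substrate of the type I receptors, had 8.86, 9.62 and 9.86 on day 1 and 7.03, 8.54 and 8.31 on day 0. Its rise of 1.49 (limma adjusted p = 0.0425) was lost without any 1 of 7 of the 15 arrays, which are day 0 replicates 1 and 3, day 1 replicates 2 and 3, day 4 replicate 3 and day 7 replicates 2 and 3 (adjusted p up to 0.179). On day 7 its change was 0.82 (adjusted p = 0.246). SMAD4, the shared partner, had changes of 0.08 on day 1 and -0.33 on day 7 (adjusted p = 0.0763).

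**Figure D5:**
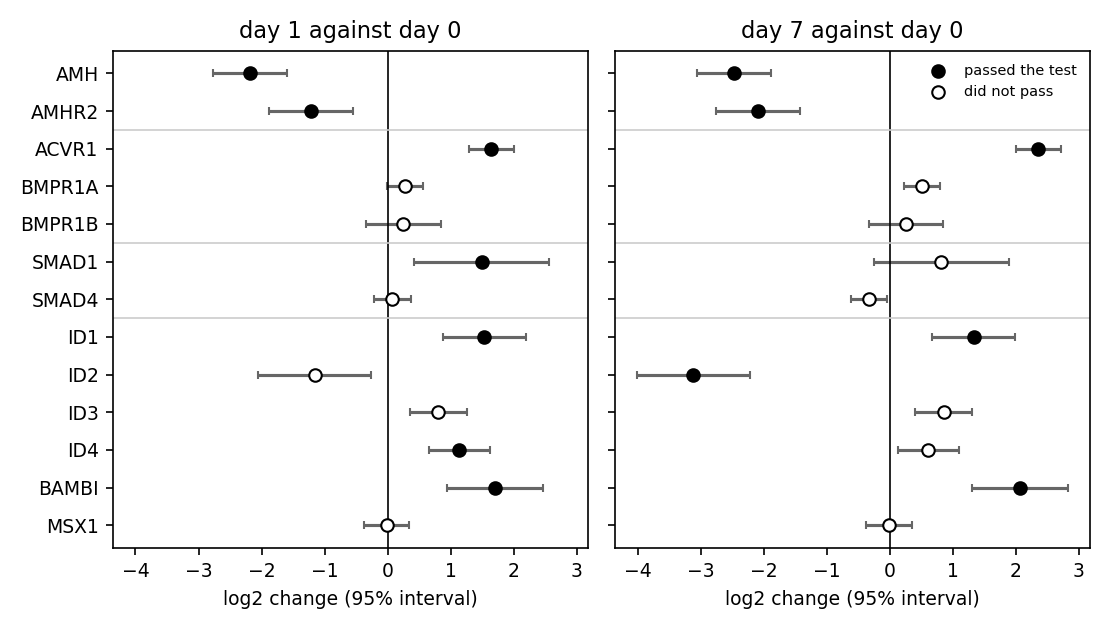
Log2 change of AMH, AMHR2, the type I receptors, the measured Smads and known BMP target genes on day 1 and day 7 against day 0, with 95% intervals from limma; filled points passed the test. AMH and AMHR2 fell on both days and ACVR1 rose on both, while the targets moved in both directions by day 7.

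Genes known to respond to BMP receptors were followed as a readout shared by many ligands. Of 6 measured, 3 were higher and none lower on day 1 (median change 0.97), beside 6.47% and 6.03% of all probe sets. On day 7, 2 were higher and 1 lower (median 0.73), beside 9.36% and 7.28%. ID1, an inhibitor of basic helix-loop-helix factors and a direct SMAD1 target, rose by 1.53 on day 1 (adjusted p = 0.00202) and by 1.33 on day 7 (adjusted p = 0.00421). The day 7 call was lost without replicate 1 or replicate 3 on every day (change down to 0.92, adjusted p up to 0.0575), and that of day 1 without replicate 3 (adjusted p = 0.0757). BAMBI, a pseudoreceptor that dampens the pathway, rose by 1.70 and by 2.07 (adjusted p = 4.64e-04 on day 7). Its other probe set gave 0.62 and 0.84, which were not called.

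ID2 moved the other way. It had 5.35, 5.83 and 5.43 on day 7 and 7.48, 9.11 and 9.36 on day 0, a fall of 3.12 (adjusted p = 5.46e-05). Its change on day 1 was -1.15 (adjusted p = 0.0584), which passed with replicate 1 of day 0, or with replicate 1 or 2 of day 4, left out (range of the change without arrays -1.93 to -0.71). ID3, another inhibitor of the same family, changed by 0.85 on day 7 (adjusted p = 0.00597, under the minimum change). ID4, the last of them, was called on day 1 (1.14, adjusted p = 0.00201) and not on day 7 (0.61). Without replicate 3 on every day the day 1 call of ID4 was lost too (adjusted p = 0.0558), so that the 3 targets higher on day 1 became 1.

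Of 6 other BMP family and oocyte ligands, 4 were measured. On day 7, 1 was higher and 1 lower, beside 9.36% and 7.28% of all probe sets. Such counts are no result about the list. BMP4, made by theca cells in rodents, had 7.25, 7.38 and 7.29 on day 7 and 6.02, 5.69 and 6.04 on day 0, a rise of 1.39 (adjusted p = 0.0034; 0.116 without replicate 2 on every day). GDF9, an oocyte growth factor that signals through another type I receptor, fell by 1.61 (adjusted p = 1.45e-06). GDF9 is also among 6 measured oocyte markers, of which it alone was called, and ZP2 and DDX4 lay at or below the lower quartile on all days. FST, follistatin, which binds activins and some BMPs, fell by 5.11, and FSTL3, its relative, rose by 2.04 on day 7. PCSK7, the only measured convertase of the list of enzymes that may cleave the AMH precursor, changed by 0.89 on day 7 (adjusted p = 0.00174, under the minimum change).

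Of 12 measured regulators of AMH and AMHR2 transcription, 2 were higher and 1 lower on day 1 (median change -0.03), beside 6.47% and 6.03% of all probe sets. On day 7, 1 was higher and 3 lower (median -0.22), beside 9.36% and 7.28%. Counts this small next to such shares are no result about the list. On day 1 the 2 became 1 without day 0 replicate 3 or day 1 replicate 1. SOX9, which switches on AMH in the fetal testis, had 7.20, 7.09 and 7.59 on day 7 and 5.00, 4.78 and 4.93 on day 0. It rose by 2.55 on day 1 (adjusted p = 8.28e-07) and by 2.39 on day 7 (adjusted p = 4.87e-07). AMH was low on every culture day, and a link between SOX9 and AMH was not tested.

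NR5A2, a nuclear receptor of granulosa cells, had 8.26, 7.93 and 7.66 on day 7 and 13.04, 12.97 and 12.20 on day 0, a fall of 4.79 (adjusted p = 1.02e-07). Its 4 other probe sets gave -5.33 to 0.15, and the one at 0.15 was not called. ESR1, an estrogen receptor, fell by 1.94 (adjusted p = 0.00838; up to 0.0833 without replicate 2 or 3 on every day), and GATA6, a zinc finger factor, by 1.51 (adjusted p = 2.84e-05). Named after their values were seen, GATA4 changed by 1.16 on day 1 (limma adjusted p = 0.0124) and by -0.30 on day 7. The day 1 call was lost without day 0 replicate 3 or day 1 replicate 1 (adjusted p up to 0.0544). It was also lost without replicate 2 or 3 on every day (up to 0.123). The second GATA4 probe set gave 1.51 on day 1, which was not called (adjusted p = 0.172). On day 7 NR5A1 changed by -0.95 (limma adjusted p = 0.00122, under the minimum change), and its second probe set gave -0.45 (adjusted p = 0.284). FOXL2, which defines granulosa cells, changed by 0.04 (adjusted p = 0.873).

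The genes whose courses were most like that of AMH were searched among 2143 genes with day means at least 1 apart, by Pearson correlation over the 15 arrays. The correlations are descriptions, since arrays of 1 day share their culture time. For AMH, 46 genes reached 0.9 and 82 were at -0.9 or below. The most alike were DDIT4L (0.95), AUH (0.94), EDNRB (0.94), PPT2 (0.94) and NEBL (0.94). The most opposed were MRPL40, CELF4, CTTN and TXNRD1 (-0.96 each) and GPX1 (-0.95).

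For AMHR2 far fewer genes were alike, 5 at 0.9 or above and 7 at -0.9 or below. They were led by NAP1L5 (0.96), LOC396905 (0.94), JAKMIP1 (0.93), NREP (0.92) and LHCGR (0.91). CD151 (-0.95), DDAH1 (-0.94), LOC100522887 (-0.94), HPSE (-0.92) and RBPMS (-0.92) were most opposed.

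Markers of other ovarian cells moved beside the fall of both genes. For the counts below, 6.47% of all probe sets were called higher and 6.03% lower on day 1. On day 7, 9.36% were called higher and 7.28% lower. Of 9 stromal and smooth muscle markers, 8 rose by day 7, with a median change of 5.95. Of 13 granulosa markers, FSHR and CYP19A1 among them, none rose and 6 fell by day 7 (median -0.90). HSD17B1, an estradiol enzyme, fell by 7.89 and INHA, the inhibin alpha subunit, by 7.21. On day 1, when AMH fell, 7 of the 13 had fallen and 1 had risen. The 7 became 4 without day 1 replicate 3 alone, where the calls of FSHR, INHA and SERPINE2, a protease inhibitor, were lost, and 2 and 4 without replicates 2 and 3 on every day. Of 6 theca markers 1 rose and 2 fell by day 7. Of 8 endothelial markers 2 rose and 1 fell, with CDH5, KDR and TEK at or below the lower quartile throughout. Of 5 macrophage markers 1 rose, with CD163, AIF1 and ITGAM equally low, and none of 4 lymphocyte or 3 red blood cell markers was called. The counts of theca, endothelial and macrophage markers are too small next to those shares to be a result about the lists. The part of a change in the mix of cells in the falls of AMH and AMHR2 was not tested.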

How the data were processed

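The authors deposited log2 intensities of 24123 probe sets on 15 arrays, summarised by RMA per the submitters' processing notes, with no version given in the sources used here. The 124 control probe sets were left out. Symbols came from the array annotation (10069 probe sets with 1 symbol, 198 with several and 13732 with none). Day was fitted as a factor with limma 3.58.1 in R 4.3.3, and checked on simulated data. The members and the 18 gene lists (84 of 121 genes measured) were chosen with earlier results of these data known. Named genes were AMH, AMHR2, all measured receptor complex and Smad genes, up to 4 of each other list by size of the day 7 change, and the 5 most alike and opposed to each member. Where a gene had several probe sets, that with the highest mean was used. AMH minus AMHR2 was tested by exact permutation, and as a row of the fit chosen after its values were seen.

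Replicate numbers are shared by the days. Deviations of same-numbered arrays from their day means correlated above 0.1 in 7 of the 8 comparisons and not in day 1 against day 0 (0.0609 to 0.333). Replicate 1 stood apart on the third principal component on every day, which alone can raise such correlations. They therefore do not settle whether the numbers pair the arrays, and the labels name no pairing. The fits given above have no block, and a replicate block was an alternative. The block changed no call of AMH or AMHR2. Alternatives were further normalization, array weights (gene-by-gene method, since REML did not converge), a replicate block, only the arrays of the days compared, trend and robust settings, a filter on the dimmest 40% of probe sets, no minimum change, and leaving out arrays (18 fits). Array number limits the precision. No sequence or position is given.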

Additional observations from a re-analysis of the deposited data

How the results depend on the processing

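The falls of AMH against day 0 were called in every fit, with a day 7 change of -3.04 to -2.16 when arrays were left out. AMH was too dim for the filter that drops 40% of the probe sets and has no value there. The direction of the called AMHR2 changes held in every fit, but leaving out arrays gave ranges of -1.28 to -1.12 for day 1 against day 0, 1.08 to 1.49 for day 2 against day 1 and -1.99 to -1.28 for day 4 against day 2, with calls lost as given above. With only the arrays of days 4 and 2 the last change was -1.75 but its adjusted p was 0.103, with fewer arrays to estimate the spread. With the replicate number as a block, the change of AMHR2 on day 2 against day 1 was 1.29 (adjusted p = 0.00629).

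For AMH minus AMHR2 in the limma fit, leaving out arrays gave -1.27 to -0.68 for day 1, -2.49 to -1.58 for day 2, -1.73 to -0.38 for day 4 and -1.06 to 0.10 for day 7 against day 0, and -1.25 to -0.78 for day 2 against day 1. Array weights brought a call for day 1 (-1.24) and day 4 (-1.39) against day 0, for day 2 against day 1 (-1.22) and for day 4 against day 2 (1.07). The cause was not tested. In the 3 permutation tests the smallest adjusted p with a replicate number left out was 0.0667.

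Counts over all probe sets moved by more than 1.5 times as follows. Between days 2 and 1, 729 became 1295 with array weights, 478 without day 1 replicate 2, 465 and 451 without day 2 replicates 2 and 3, and 1321, 40 and 70 without replicates 1, 2 and 3 on every day. Between days 4 and 2, 608 became 371 with only their arrays, and 116 and 170 without replicates 2 and 3. Between days 7 and 4, 14 became 69 with array weights, 41 with the block, 4 under the filter on dim probe sets, 4 without day 4 replicate 2, 9 without day 7 replicate 2, 55 without replicate 1, and 0 by limma with only their arrays or without replicate 2 or 3 (1240, 382 and 575 at an unadjusted p under 0.05). Between days 7 and 1, 2168 became 1369 and 1444 without replicates 2 and 3, and the F test's 5670 became 3693 and 3335. Without a minimum change the counts against day 0 were 6020, 6248, 7360 and 7514 on days 1, 2, 4 and 7 (3001, 3306, 3811 and 3993 with it), 1461 between days 2 and 1, 1002 between days 4 and 2, 4524 between days 7 and 1 and 8605 by the F test.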
